A study of Mus musculus with 35 samples.

Results

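Polymorphonuclear myeloid-derived suppressor cells (PMN-MDSC) sorted from pancreatic tumors were compared with PMN-MDSC sorted from spleens of untreated tumor-bearing mice. The members are the 4 tumor and 4 spleen libraries that carry this cell type, compartment and treatment in their labels, 8 of the 35 samples of the series. They were compared as unpaired groups: sample titles share numbers between fractions, but the columns of counts carry other numbers, and columns were not tied to titles by their order. All mice were female C57BL/6 animals with wild-type genotype, and the labels give no age. Tumors came from T110299 cells, a single line derived from a pancreatic tumor of a KPC mouse, a model in which Ptf1a-Cre drives the disease in the pancreas, implanted into the pancreas. The labels call the mice untreated, and the study's results likewise say that they were left untreated. The protocol names intravenous glucose as the control for complexed poly(I:C), a double-stranded RNA, on days 18 and 20 after tumor induction. Whether these mice received glucose could not be settled. After bead enrichment for CD11b, Ly6C low Ly6G+ cells were sorted, and their total RNA was sequenced.

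PMN-MDSC are cells of the neutrophil lineage that accumulate in the spleen and in tumors of tumor-bearing hosts and suppress T cells. Neutrophils make their granule proteins in sequence while they mature in the bone marrow, and leave the blood through selectins and integrins. In inflamed tissue they release chemokines and interleukin-1, often under control of the transcription factor NF-κB, and myeloid cells in poorly oxygenated tissue express hypoxia-inducible genes.

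The spleen libraries held 2008010 to 3769395 counts (median 3033130) and the tumor libraries 1648775 to 2502390 (median 1977131). Values are given as CPM, counts scaled to library size by the trimmed mean of M-values (TMM) over the 8 libraries, in the order of libraries 1 to 4, and 3 counts corresponded to 0.796 to 1.82 CPM. Library numbers only name columns. Tumors were minced and taken apart with a tumor dissociation kit, whereas spleens were pressed through a strainer and freed of red cells, so preparation and compartment cannot be told apart. Genes encoded by mitochondria took 2.63 to 5.27% of the counts in spleen libraries and 7.17 to 15.3% in tumor libraries, highest in tumor libraries 1 and 2.

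Of 7971 genes that averaged 25 or more counts in these libraries, 730 (9.16%) were called higher and 997 (12.5%) lower in tumor, 21.7% in either direction, at an adjusted p under 0.001 and at least 2-fold in edgeR's quasi-likelihood test. The median log2 fold change of all tested genes was 0.01. DESeq2 called 1286 (16.1%) and 1305 (16.4%), and these held all 730 and 995 of the 997 genes. Changes toward the tumor were the larger ones: 205 genes were at least 8-fold higher and 121 at least 8-fold lower, and 64 and 4 passed 32-fold. These counts moved when single libraries were left out. Leaving out any 1 tumor library gave 406 to 493 higher and 531 to 640 lower genes, leaving out spleen library 3 or 4 gave 475 or 394 higher genes, and leaving out spleen library 1 gave 1241. Without tumor libraries 1 and 2, which held the most keratin counts, 186 genes were higher and 98 lower, and without spleen libraries 1 and 2 there were 1312 and 1078, both settings chosen after the data were seen.

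The antigens used for sorting were checked first, of which 4 of 5 were tested and 2 fell. Itgam, which encodes CD11b, stood at 511, 639, 642 and 525 CPM in spleen and 267, 346, 358 and 345 CPM in tumor libraries (log2 fold change −0.81, SE 0.17, adjusted p = 0.00221, under 2-fold). Ly6g, the antigen of the PMN-MDSC gate, stood at 33.5, 62.7, 86.8 and 49.8 CPM in spleen and 0, 1.60, 8.54 and 0.905 CPM in tumor libraries (−4.20, SE 0.64, adjusted p = 3.1e-04). The groups did not overlap, and 1 of the 4 tumor libraries held no Ly6g count, although the cells were gated on the protein. This call was lost without spleen library 2 or 3 or tumor library 2 or 4. Ly6c2, the main transcript of the Ly6C antigen, fell by 3.47 (log2, SE 0.47, adjusted p = 1.4e-04), and Ly6c1 stood at or below 1.20 CPM in every library. Ptprc, which encodes CD45, stood at 961 CPM in spleen library 2 and at 3300 to 3880 CPM in the other spleen libraries, against 1040 to 1660 CPM in tumor libraries. It was not called (−1.23, SE 0.38, adjusted p = 0.0175), but was called (−1.49) without spleen library 2.

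Markers of other cells were summed in each library. The 16 markers of monocytes and macrophages summed to 2640, 2090, 1090 and 1450 CPM in spleen and 14200, 11800, 15000 and 14400 CPM in tumor libraries. Apoe alone gave 52.8 to 61.1% of the sum in tumor libraries, and without it the sum was 901 to 2070 CPM in spleen and 5010 to 6690 CPM in tumor. Of the 16, 11 were called higher in tumor (median log2 fold change 2.92), among them C1qa, C1qb, C1qc, Adgre1 and Apoe, and only Ly6c2 was called lower. Markers of epithelial tumor cells summed to 36.3 to 68.7 CPM in spleen and to 891, 577, 143 and 212 CPM in tumor libraries, with Cldn4 and Cldn7 at 0 in all 8. The keratin transcript Krt8 was at 0 in every spleen library and at 235, 149, 36.0 and 55.2 CPM in tumor libraries, at least 457-fold higher over the group floor of 3 counts (adjusted p = 4.1e-04, lost without spleen library 1, 2 or 3 or tumor library 2). On the scale of all 34 libraries, this was 5.71% ± 4.32 of the level in bulk tumor for Krt8 and 6.2% ± 4.68 for Krt18 (SD, n = 4). The study reports a lower mean tumor cell contamination of its tumor-derived MDSC populations, judged by the same keratins. Its methods text does not name the reference level, so the values may not be alike. Acinar and islet markers summed to 1.39 to 5.42 CPM in spleen and 31.7 to 256 CPM in tumor libraries. Erythroid markers summed to 93.4 to 230 CPM in spleen and 47.5 to 65.9 CPM in tumor libraries. T and NK cell markers summed to 14.9 to 25.3 CPM and 21.3 to 32 CPM, and B and plasma cell markers to 194 to 440 CPM and 84.3 to 139 CPM. Dendritic cell markers summed to 289 to 473 CPM in spleen and 376 to 412 CPM in tumor libraries, eosinophil, basophil and mast cell markers to 94.4 to 163 and 107 to 232 CPM, and endothelial markers to 33 to 85.2 and 84.3 to 101 CPM. Stromal, platelet and stem cell markers lay between 35 and 96 CPM in every library. The part of these other cells in the differences described here was not tested, and fewer cells of a type and less RNA per cell cannot be told apart in bulk libraries.

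**Figure D1:**
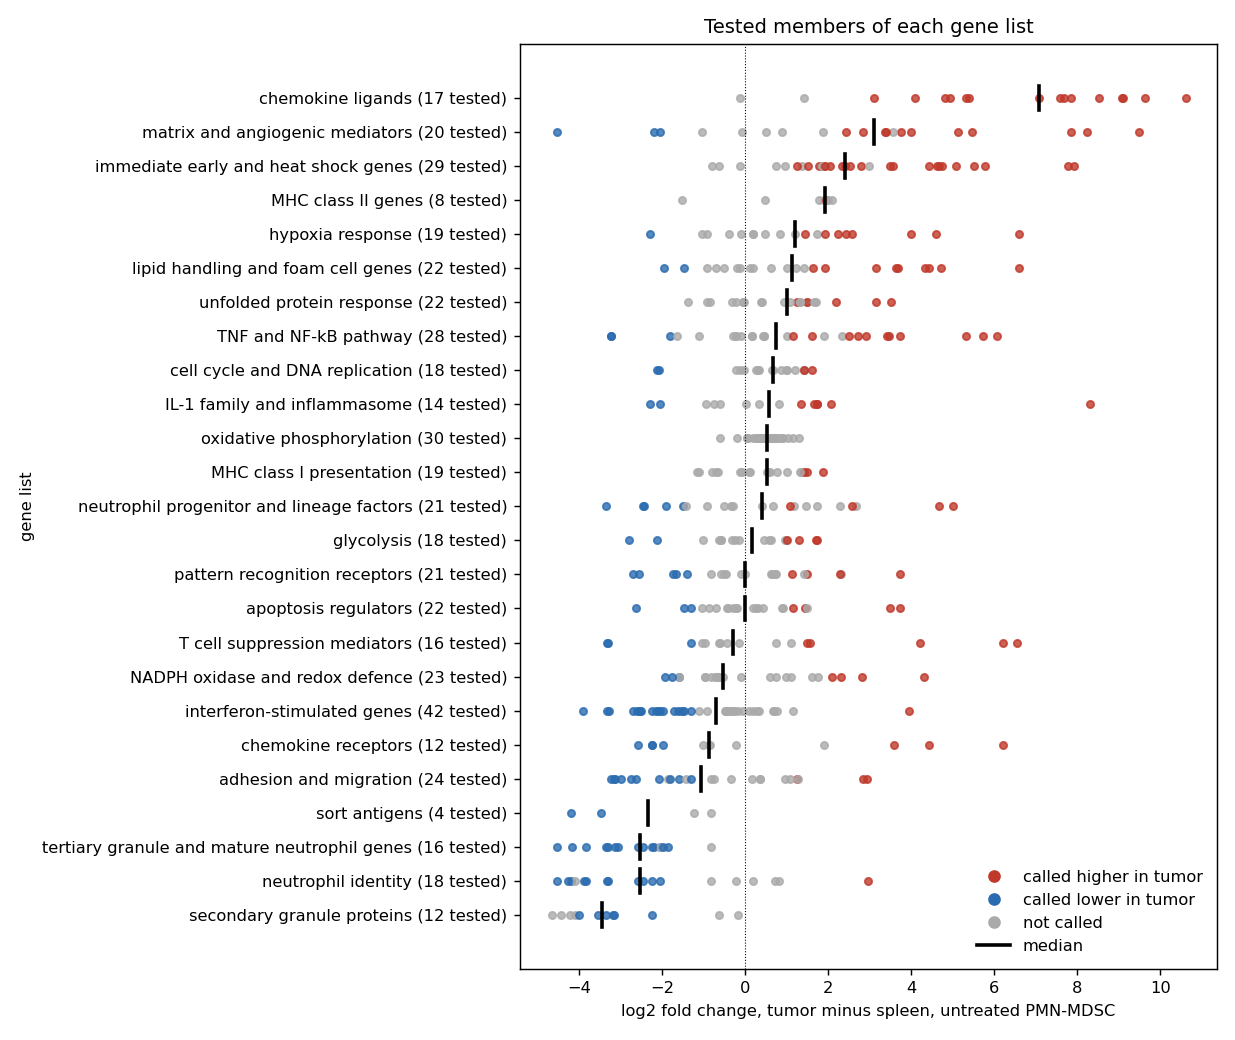
Each point is a tested member of a function list, placed by its log2 fold change (tumor minus spleen) on the x axis, with gene lists on the y axis; red points were called higher, blue points lower, grey points not called, and black bars mark list medians. Medians run from −3.45 for secondary granule proteins to 7.07 for chemokine ligands, while all tested genes had a median of 0.01.

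Most genes of neutrophil identity fell in tumor. Of 18 such genes, all tested, 11 fell, 1 rose and 6 did not pass (median log2 fold change −2.52), and their summed level was 16500 to 33700 CPM in spleen and 2770 to 7330 CPM in tumor libraries, lowest in tumor library 1. Mmp8 (chr9:7558456-7568485, plus strand, GRCm38), which encodes neutrophil collagenase, stood at 728, 731, 1150 and 730 CPM in spleen and 12.7, 41.6, 73.1 and 14.9 CPM in tumor libraries (−4.53, SE 0.53, adjusted p = 6.0e-05). Every tumor library lay below every spleen library, and spleen library 3 and tumor library 3 were the highest of their groups. Stfa2l1, a stefin of the cystatin family whose close copies may share reads, stood at 39.4 to 110 CPM and 2.89 to 4.08 CPM (−4.26, SE 0.36, adjusted p = 1.0e-05). Wfdc21 and Retnlg, which encode secreted neutrophil proteins, fell by 3.87 and 3.84 on the log2 scale, Retnlg losing its call without tumor library 2. Named after their values were seen, S100a8 and S100a9, the subunits of calprotectin, fell by 3.29 and 3.33, the G-CSF receptor gene Csf3r fell by 2.45, and Cxcr2, the receptor for CXCL1 and CXCL2, fell by 2.59. Among tested genes S100a9 had the highest mean level per transcript length in spleen PMN-MDSC, 11800 FPKM, against 1170 FPKM in tumor. The exception was G0s2, a regulator of lipolysis, which rose by 2.96 (adjusted p = 4.0e-04). Cxcr4, the receptor that holds neutrophils in the marrow, was at 166 to 375 CPM in spleen and 139 to 318 CPM in tumor libraries, with overlapping groups (−0.23, SE 0.30, adjusted p = 0.537).

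Granule genes were taken by the stage at which neutrophils make them. Of 9 primary granule genes, 8 were too low to test, including Mpo at a mean of 1.14 CPM in spleen and 1.97 CPM in tumor and Elane at 0.311 and 0 CPM. The tested one, Serpinb1a, an inhibitor of granule proteases, stood at 64.3, 72.3, 196 and 99.6 CPM in spleen and 9.24, 11.7, 12.6 and 10.4 CPM in tumor libraries (−3.28, SE 0.37, adjusted p = 5.0e-05). Of 12 secondary granule genes, 6 fell and 6 did not pass (median −3.45). Chil3 (−3.55), Cd177 (−3.16), the leukotriene B4 receptor gene Ltb4r1 (−2.23) and Cebpe (−3.34), the factor that drives secondary granule genes, passed. Chil3 lost its call without spleen library 2 or tumor library 1, 2 or 4, and Cd177 without tumor library 2 or 4. Ltf, Camp, Ngp and Lcn2, named after their values were seen, had log2 fold changes of −4.44, −4.66, −4.22 and −4.09 but adjusted p-values of 0.00161 to 0.00869. Their tumor libraries spread widely, and Lcn2 stood at 17.3 and 20.8 CPM in tumor libraries 1 and 4 and at 177 and 206 CPM in libraries 2 and 3. Lyz2, which macrophages also express, had means of 3610 CPM in spleen and 3200 CPM in tumor (−0.17, adjusted p = 0.526).

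Of 16 genes of tertiary granules and mature neutrophils, 14 fell and 2 did not pass (median −2.52), and the groups of all 16 did not overlap, where 27.9% of all tested genes were lower without overlap and 55.1% differed without overlap in either direction. Padi4, the deiminase needed for extracellular traps, stood at 389, 640, 483 and 399 CPM in spleen and 23.7, 48.5, 59.8 and 53.4 CPM in tumor libraries (−3.36, SE 0.30, adjusted p = 1.3e-05). Pglyrp1, a bactericidal protein, stood at 230, 513, 388 and 310 CPM and 6.93, 19.7, 30.8 and 20.8 CPM (−4.17, SE 0.40, adjusted p = 2.2e-05). Tumor library 1 was lowest for both of these genes. Among 23 lineage factors, 21 were tested, 4 rose and 5 fell (median 0.40). Maff, a small Maf factor, rose by 5 and Egr1 by 4.67, and both are also stimulus-induced genes. Bhlhe40, which represses transcription under hypoxia and in activated cells, stood at 78.4 to 128 CPM in spleen and 529 to 727 CPM in tumor libraries (2.57, SE 0.20, adjusted p = 6.2e-06).

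Of 24 genes for adhesion and migration, all tested, 10 fell, 3 rose and 11 did not pass (median −1.06). Itgal, the alpha chain of LFA-1, stood at 1370, 2250, 1250 and 1400 CPM in spleen and 158, 231, 182 and 218 CPM in tumor libraries (−2.99, SE 0.25, adjusted p = 9.5e-06). Ceacam1, an adhesion receptor and co-receptor of immune cells, fell by 3.22, and the integrin beta chain gene Itgb3, also a platelet marker, fell by 2.74. In contrast, Itga6, an alpha chain of laminin receptors, stood at 12.2 to 18.0 CPM in spleen and 91.0 to 129 CPM in tumor libraries (2.93, SE 0.20, adjusted p = 3.1e-06). On the scale of all 34 libraries, Itga6 averaged 329 CPM in bulk tumor, 121 CPM in tumor PMN-MDSC and 51.2 CPM in tumor M-MDSC. Icam1, the ligand of LFA-1, rose by 2.85 (SE 0.25, adjusted p = 1.2e-05). Itgax, which encodes CD11c, was at 237 to 333 CPM and 293 to 343 CPM with overlapping groups.

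Interferon-stimulated genes mostly encode antiviral proteins. Of 46 genes, 42 were tested, 18 fell and 1 rose, and 23 did not pass (median −0.70). Oas3, a synthetase that senses double-stranded RNA, stood at 234, 602, 396 and 339 CPM in spleen and 30, 40.5, 39.7 and 46.6 CPM in tumor libraries (−3.32, SE 0.29, adjusted p = 1.3e-05). Ifit1, which binds viral RNA caps, stood at 47.4, 92.2, 81.6 and 86.4 CPM and 13.9, 11.7, 11.5 and 15.8 CPM (−2.53, SE 0.25, adjusted p = 2.4e-05). No tumor library reached the lowest spleen library for either gene. The nucleotide kinase gene Cmpk2 fell by 3.27 and Rtp4, a receptor transporter that restricts viruses, by 2.56. The exception, named after its value was seen, was the GTPase gene Iigp1, at means of 3.09 CPM in spleen and 51.5 CPM in tumor (3.94, adjusted p = 7.9e-05). Isg15, a ubiquitin-like modifier, did not pass (0.10, adjusted p = 0.832). Ifit3 and Ifit3b are near-identical copies, and so are the Oas1 genes, so reads may be split between them.

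The promoters of Oas3 and Ifit1 are shown because both genes carry an interferon-stimulated response element (ISRE) in this window. Promoters are RefSeq sequences (GRCm38.p6) from 250 bases before to 50 bases after a start, 5′ to 3′ on the gene's strand, and capitals mark matches to the letters searched, on either strand. RefSeq gives several starts for 1269 of the 6018 tested genes with a promoter, and a gene was counted when any of its windows matched. For the ISRE the letters were GAAA, any 2 bases and GAAA, a run that holds none of the other 4 motifs searched. A match was found in 18 of 33 tested interferon-stimulated genes with a promoter (54.5%), among them Isg15, which was not called. The share was 4.35% of the 6018 of 7971 tested genes with a promoter and 3.99% of 27025 genes with a promoter. It was 4.44% of called higher and 5.64% of called lower promoters. Oas3 (chr5:120777610-120777909, minus strand) had 1 match at position 176 and Ifit1 (chr19:34640639-34640938, plus strand) 2 matches at positions 147 and 166, counted from 1 at the 5′ end.
Oas3: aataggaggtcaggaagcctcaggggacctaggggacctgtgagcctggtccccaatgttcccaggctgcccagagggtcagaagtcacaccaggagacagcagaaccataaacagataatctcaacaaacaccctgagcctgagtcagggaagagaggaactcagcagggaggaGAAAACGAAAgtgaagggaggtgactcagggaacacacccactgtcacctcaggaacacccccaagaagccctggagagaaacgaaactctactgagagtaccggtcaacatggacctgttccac
Ifit1: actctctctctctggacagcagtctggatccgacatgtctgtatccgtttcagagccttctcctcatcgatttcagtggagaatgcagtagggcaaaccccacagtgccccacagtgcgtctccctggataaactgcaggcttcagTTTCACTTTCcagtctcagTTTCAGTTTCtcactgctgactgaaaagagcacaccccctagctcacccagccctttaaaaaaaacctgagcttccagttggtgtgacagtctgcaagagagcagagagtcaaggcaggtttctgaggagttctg

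Chemokine ligand genes had the highest median of the 26 function lists. Of 24 genes, 17 were tested, 15 rose and 2 did not pass (median 7.07), and 7 were too low to test. The groups of 15 did not overlap, where 27.2% of all tested genes were higher without overlap. Cxcl1, a neutrophil attractant that binds CXCR2, stood at 0, 0.602, 0.347 and 0 CPM in spleen and 150, 116, 153 and 71.5 CPM in tumor libraries (adjusted p = 1.8e-06). With so few counts in spleen, the ratio was 708 with a 95% counting interval of 196 to 5850. Ccl8, a monocyte attractant, stood at 0, 0, 0 and 0.321 CPM and 76.8, 75.2, 72.4 and 70.6 CPM (adjusted p = 3.5e-07), the tumor libraries lying close together. Ccl7, which binds CCR2, was at 0 in every spleen library and at 102, 49.1, 102 and 58.4 CPM in tumor libraries, at least 299-fold higher. Ccl4, an attractant of monocytes and T cells, stood at 0.257, 0.602, 0.694 and 1.93 CPM and 165, 114, 130 and 86.9 CPM (7.07, SE 0.41, adjusted p = 1.8e-06). Pf4, platelet factor 4, stood at 36.8 to 60.2 CPM in tumor libraries and at or below 0.602 CPM in spleen, while the platelet markers Itgb3 and Itga2b stood at 8.60 to 10.7 and 1.73 to 4.07 CPM in tumor libraries. Named after its values were seen, Cxcl2, also a ligand of CXCR2, stood at 3.86, 15.7, 5.21 and 12.8 CPM in spleen and 1120, 2020, 2050 and 1800 CPM in tumor libraries (7.59, adjusted p = 2.7e-06). Ccl6 stood at means of 1120 CPM in spleen and 1030 CPM in tumor and was not called (−0.12, adjusted p = 0.711).

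The promoters of 4 CXC chemokine genes held a match to an NF-κB element and are shown for that. The letters searched were GGGA, any 2 bases and TTCC on both strands, where 1 site can match on both strands in overlapping windows. A match was found in 4 of 11 tested chemokine genes with a promoter (36.4%). The share was 2.09% of tested genes and 1.63% of all genes with a promoter, and 2.59% of called higher and 1.57% of called lower promoters. Of 23 tested genes of the TNF and NF-κB list, 3 held it (13.0%), Ltb, Nfkbia and, at an inner start only, Nfkb2. The windows are chr5:90890995-90891294 (plus) for Cxcl1, chr5:90903649-90903948 (plus) for Cxcl2, chr5:90785851-90786150 (plus) for Cxcl3 and chr5:92348840-92349139 (minus) for Cxcl10. Cxcl1, Cxcl2 and Cxcl3 held 2 overlapping matches each, from positions 180, 154 and 178, and Cxcl10 held 1 at position 92. Cxcl3 and Cxcl10, the latter an attractant of activated T cells, had means of 0.301 and 3.29 CPM in spleen and 46.9 and 92.7 CPM in tumor.
Cxcl1: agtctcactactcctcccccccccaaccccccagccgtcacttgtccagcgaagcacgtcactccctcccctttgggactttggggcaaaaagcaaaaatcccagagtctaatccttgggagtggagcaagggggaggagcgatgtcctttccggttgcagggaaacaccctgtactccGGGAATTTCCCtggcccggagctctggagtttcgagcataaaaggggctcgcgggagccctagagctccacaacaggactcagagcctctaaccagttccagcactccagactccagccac
Cxcl2: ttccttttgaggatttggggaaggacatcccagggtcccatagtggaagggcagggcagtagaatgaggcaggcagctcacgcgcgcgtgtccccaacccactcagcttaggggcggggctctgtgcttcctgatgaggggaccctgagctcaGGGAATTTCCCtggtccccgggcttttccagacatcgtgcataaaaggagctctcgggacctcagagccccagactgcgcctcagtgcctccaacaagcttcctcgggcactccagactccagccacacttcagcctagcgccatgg
Cxcl3: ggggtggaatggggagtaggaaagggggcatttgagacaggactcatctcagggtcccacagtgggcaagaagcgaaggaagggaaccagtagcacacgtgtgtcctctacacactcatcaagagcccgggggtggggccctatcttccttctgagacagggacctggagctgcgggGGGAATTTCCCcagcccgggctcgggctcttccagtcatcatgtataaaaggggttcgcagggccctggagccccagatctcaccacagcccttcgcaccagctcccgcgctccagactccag
Cxcl10: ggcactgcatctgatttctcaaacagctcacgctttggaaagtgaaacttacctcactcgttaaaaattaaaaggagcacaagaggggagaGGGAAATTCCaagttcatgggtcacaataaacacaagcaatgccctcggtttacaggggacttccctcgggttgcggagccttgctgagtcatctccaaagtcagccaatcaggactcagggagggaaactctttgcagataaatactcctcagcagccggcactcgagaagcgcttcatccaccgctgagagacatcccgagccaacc

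Of 18 receptors for chemokines and other attractants, 12 were tested, 3 rose and 4 fell (median −0.86). Ccrl2, an atypical receptor that presents chemerin, stood at 4.63, 13.3, 9.37 and 11.9 CPM in spleen and 542, 792, 747 and 729 CPM in tumor libraries (6.2, SE 0.33, adjusted p = 1.2e-06). Cx3cr1, the fractalkine receptor typical of monocytes and macrophages, stood at 31.7, 20.5, 5.21 and 13.5 CPM and 201, 248, 195 and 214 CPM (3.59, SE 0.41, adjusted p = 5.7e-05). The receptor for formylated peptides encoded by Fpr1 fell by 2.24 (adjusted p = 2.2e-04), a call lost without tumor library 1, 3 or 4.

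Of 18 genes of the interleukin-1 family and the inflammasome, 14 were tested, 6 rose, 2 fell and 6 did not pass (median 0.58). Il1a stood at 3.86, 3.01, 1.04 and 0.963 CPM in spleen and 781, 765, 785 and 525 CPM in tumor libraries (8.30, SE 0.41, adjusted p = 8.3e-07), with tumor library 4 below the other tumor libraries. Il1b, named after its values were seen, already stood at 1410 to 3300 CPM in spleen and reached 5330 to 8140 CPM in tumor (1.74, adjusted p = 6.6e-04). Among tested genes it had the highest mean level per transcript length in tumor PMN-MDSC, 3800 FPKM against 1140 FPKM in spleen. The antagonist gene Il1rn rose by 1.72 (SE 0.22, adjusted p = 1.2e-04) and the inflammasome sensor gene Nlrp3 by 1.65 (adjusted p = 3.7e-04, lost without spleen or tumor library 3 or 4). Il1rap, the accessory chain of the receptor, stood at 206 to 324 CPM and 45.1 to 76.1 CPM (−2.28, SE 0.21, adjusted p = 1.9e-05).

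Among 32 genes of the TNF and NF-κB pathway, 28 were tested, 11 rose and 3 fell (median 0.74). Those named by rule were the cytokine and the feedback inhibitors. Tnfaip3 (chr10:19000910-19015657, minus strand), whose product A20 ends NF-κB signalling, stood at 59.7, 48.8, 50.0 and 59.4 CPM in spleen and 1930, 2170, 2490 and 2130 CPM in tumor libraries (5.32, SE 0.21, adjusted p = 3.5e-07). Nfkbia, the inhibitor IκBα, stood at 92.4, 182, 112 and 124 CPM and 1150, 1460, 1590 and 1400 CPM (3.46, SE 0.25, adjusted p = 4.0e-06). Tnf stood at 20.3, 26.5, 28.5 and 27.9 CPM and 304, 357, 457 and 255 CPM (3.73, SE 0.23, adjusted p = 1.8e-06). Within each group these libraries spread less than 2-fold, and the groups lay far apart. Nfkbiz, a nuclear IκB protein, rose by 2.90. Of the subunits, Rela, Relb and Nfkb1 were not called (−0.21, 0.46 and 0.46), whereas Rel rose by 1.60.

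Immediate early genes answer a stimulus within minutes, and heat shock genes answer misfolded protein. Of 31, 29 were tested, 21 rose and 8 did not pass (median 2.40). Nr4a3, an orphan nuclear receptor, stood at 4.12, 3.61, 2.08 and 7.39 CPM in spleen and 948, 718, 1320 and 910 CPM in tumor libraries (7.78, SE 0.39, adjusted p = 9.0e-07). Its relatives Nr4a2 and Nr4a1 rose by 7.91 and 3.56, and Dusp2, a phosphatase of MAP kinases, by 5.07 (SE 0.34, adjusted p = 3.0e-06). Not every such gene was higher: Ier2 and Ier5, named after their values were seen, had log2 fold changes of −0.12 and −0.79 and were not called. The cyclic AMP response element TGACGTCA, which is its own reverse complement, was found in 5.37% of called higher, 1.44% of called lower and 3.69% of all tested promoters, and in 2 of 24 of this list (8.33%). The AP-1 element TGANTCA was found in 1 of 24 (4.17%), against 10.4% of called higher, 8.39% of called lower and 6.56% of all tested promoters. Only the tumors went through a dissociation kit, and the part of this step in these genes was not tested.

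**Figure D2:**
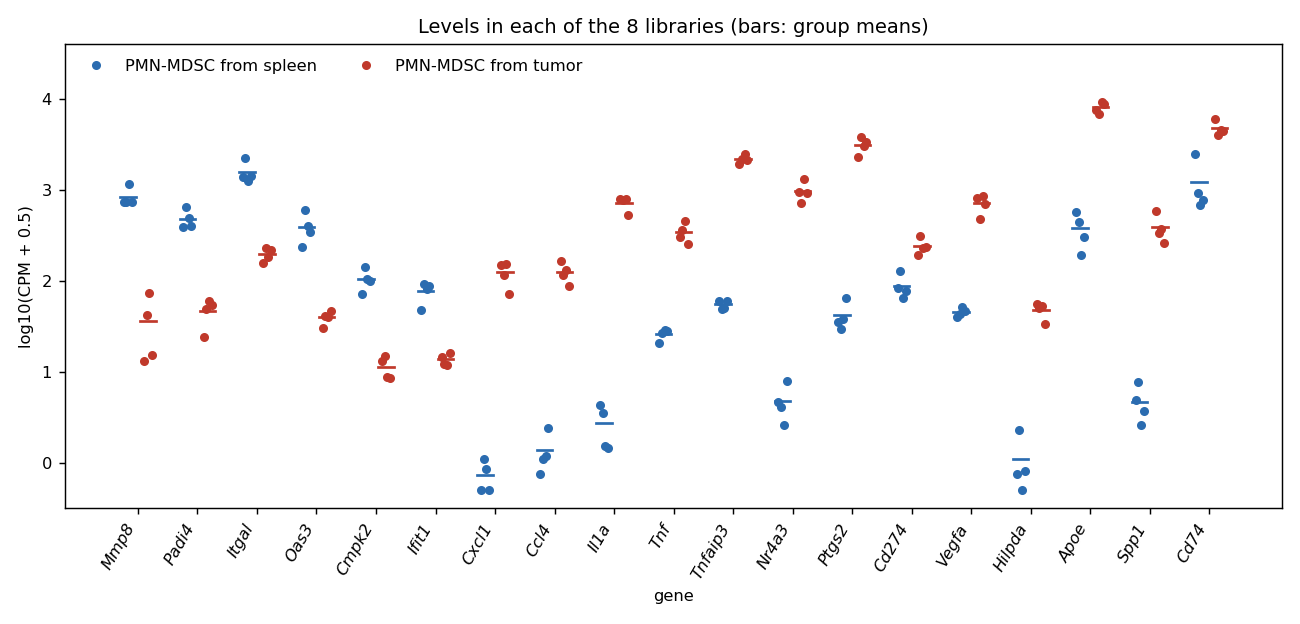
Levels of 19 genes (x axis) as log10(CPM + 0.5) (y axis) in each of the 4 spleen (blue) and 4 tumor (red) libraries of untreated PMN-MDSC, with bars at group means. The groups do not overlap for any of the 19; Cxcl1 lies at or below 0.602 CPM in spleen and at 71.5 to 153 CPM in tumor, and Cd74 has its highest spleen value, 2470 CPM, in library 1.

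Mediators by which MDSC act on T cells went in both directions. Of 22, 16 were tested, 5 rose and 3 fell (median −0.29). Ptgs2 (chr1:150100031-150108227, plus strand), which encodes the prostaglandin synthase COX-2, stood at 34.7, 28.9, 37.8 and 63.9 CPM and 2280, 3780, 3040 and 3320 CPM (6.22, SE 0.34, adjusted p = 1.2e-06). The groups did not overlap, and tumor libraries spread by less than 2-fold. The arginine transporter gene Slc7a2 rose by 4.20 (SE 0.33, adjusted p = 6.2e-06) and Nt5e, the ectonucleotidase CD73 that yields adenosine, by 1.56 (SE 0.20, adjusted p = 1.0e-04). Cd274, which encodes PD-L1, stood at 81.8, 126, 64.6 and 77.7 CPM and 193, 310, 231 and 235 CPM (1.48, SE 0.23, adjusted p = 3.7e-04), and its call was lost without spleen library 3 or 4 or tumor library 2, 3 or 4. Members that fell were S100a8, S100a9 and Vsir, the checkpoint VISTA (−1.30). Nos2 and Il10 were too low to test, at means of 8.46 and 9.08 CPM in tumor.

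Of 26 hypoxia genes, 19 were tested, 8 rose, 10 did not pass and 1, the phosphofructokinase regulator gene Pfkfb4, fell (median 1.21). Vegfa, the main angiogenic factor, stood at 39.6, 42.2, 51.4 and 45.6 CPM in spleen and 820, 476, 850 and 689 CPM in tumor libraries (3.99, SE 0.23, adjusted p = 1.8e-06). Hilpda, a lipid droplet protein that inhibits lipolysis, stood at 0.257, 1.81, 0 and 0.321 CPM and 55.5, 50.1, 52.0 and 33.0 CPM (6.59, SE 0.50, adjusted p = 5.3e-06). Mt1, a metallothionein that binds zinc and copper, rose by 4.59 (SE 0.35, adjusted p = 5.9e-06). Bnip3, Ndrg1 and Kdm3a, further targets of the hypoxia-inducible factors named after their values were seen, were not called (0.18, −0.38 and 0.19).

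The core hypoxia response element ACGTG, which is also part of the E-box CACGTG, was searched on either strand. It was found in 13 of 15 tested hypoxia genes with a promoter (86.7%). The share was 30.9% of tested genes and 21.8% of all genes with a promoter, and 34.6% of called higher and 26.2% of called lower promoters. With only the outermost start of each gene, 10 of 15 held it (66.7%), against 27.3% of tested genes and 19.6% of all genes with a promoter, since Vegfa, Hilpda and Mxi1 matched at an inner start alone. Bnip3, Egln1, Egln3 and Mxi1 held it without being called. Mt1 (chr8:94178839-94179138, plus strand) is shown with 1 match in the window of its outermost start, at position 172, and Hilpda (chr6:29272376-29272675, plus strand) with 1 match in the window of an inner start, at position 208.
Mt1: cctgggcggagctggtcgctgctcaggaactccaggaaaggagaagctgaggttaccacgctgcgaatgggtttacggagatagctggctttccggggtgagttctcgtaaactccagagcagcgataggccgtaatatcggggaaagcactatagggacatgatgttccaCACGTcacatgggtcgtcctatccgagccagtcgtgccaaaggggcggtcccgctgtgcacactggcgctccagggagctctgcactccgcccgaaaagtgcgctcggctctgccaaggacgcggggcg
Hilpda: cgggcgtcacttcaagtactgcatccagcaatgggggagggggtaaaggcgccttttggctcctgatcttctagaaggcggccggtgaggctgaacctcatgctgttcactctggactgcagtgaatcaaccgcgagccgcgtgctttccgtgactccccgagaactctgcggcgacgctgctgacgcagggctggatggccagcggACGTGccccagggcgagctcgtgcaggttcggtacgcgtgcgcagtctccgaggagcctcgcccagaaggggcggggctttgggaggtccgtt

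Of 22 glycolysis genes, 18 were tested, 4 rose and 2 fell (median 0.16), where 9.16% of all tested genes rose and 12.5% fell. Tpi1 and Pfkl, triosephosphate isomerase and the liver-type phosphofructokinase, rose by 1.74 and 1.70. Hk3, the myeloid hexokinase, stood at 340, 585, 501 and 422 CPM in spleen and 88.4, 130, 101 and 105 CPM in tumor libraries (−2.12, SE 0.21, adjusted p = 2.6e-05). The glucose transporter gene Slc2a3 fell by 2.79, a call lost without spleen library 2 or tumor library 3 or 4. Of 35 nuclear genes of oxidative phosphorylation, 30 were tested and 0 were called in edgeR, though 28 had a positive value (median 0.53), 19 had an unadjusted p under 0.05 and DESeq2 called 1. The smallest adjusted p was that of Atp5o (1.15, SE 0.23, adjusted p = 0.00176), which was called without spleen library 1. The 13 protein-coding genes of the mitochondrial genome, examined after their values were seen, had log2 fold changes of 1.93 to 3.37. In edgeR 0 of 13 were called and 11 had an unadjusted p under 0.05, and DESeq2 called 6. Their share of counts was lowest in spleen library 2 (0.0693%) and highest in tumor library 2 (1.96%), which are not tied to each other by their number.

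Of 25 genes of the unfolded protein response, 22 were tested, 5 rose and 17 did not pass (median 1.01). Ppp1r15a (GADD34), which restores translation after stress, stood at 71.0, 81.9, 67.7 and 91.2 CPM in spleen and 615, 763, 957 and 1210 CPM in tumor libraries (3.51, SE 0.25, adjusted p = 3.6e-06). Olr1, the receptor LOX-1 for oxidized lipoproteins, rose by 3.16 (SE 0.39, adjusted p = 8.0e-05), and the chaperones encoded by Pdia3 and Hspa5 by 1.49 and 1.26, Pdia3 losing its call without spleen library 4. Hspa5 kept its call in 2 of 8 fits that left out 1 library. Ddit3, which encodes the pro-apoptotic factor CHOP, was not called (−0.92, adjusted p = 0.0176).

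Of 26 lipid handling genes, 22 were tested, 9 rose and 2 fell (median 1.12). Apoe (chr7:19696109-19699188, minus strand), an apolipoprotein made in quantity by macrophages, stood at 568, 443, 190 and 299 CPM in spleen and 7490, 6820, 9190 and 8790 CPM in tumor libraries (4.43, SE 0.36, adjusted p = 9.1e-06). Spp1, which encodes osteopontin, stood at 4.37, 7.23, 2.08 and 3.21 CPM and 587, 338, 373 and 259 CPM (6.59, SE 0.39, adjusted p = 1.8e-06). Ctsl, a lysosomal protease, and Trem2, a lipid-sensing receptor, rose by 3.68 and 4.71. Spp1 and the keratins were highest in tumor library 1, Trem2 in tumor library 4. On the scale of all 34 libraries, Spp1 averaged 2550 CPM in bulk tumor, 403 CPM in tumor PMN-MDSC and 193 CPM in tumor M-MDSC. Trem2 averaged 1.37, 35.9 and 26.4 CPM in the same groups. The part of tumor cells in these levels was not tested. Mrc1, the mannose receptor CD206 of macrophages, stood at 234, 91.6, 62.5 and 94.7 CPM and 1250, 871, 1010 and 873 CPM (3.05, SE 0.39, adjusted p = 9.7e-05), whereas Csf1r, the receptor of macrophage growth factor, stood at 384 to 825 CPM and 839 to 1130 CPM and was not called (0.67, SE 0.25, adjusted p = 0.0407). Apoe, Mrc1 and Csf1r are also members of the macrophage marker list.

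Of 10 MHC class II genes, 8 were tested, 1 rose and 7 did not pass (median 1.93). Cd74, the invariant chain, stood at 2470, 920, 672 and 778 CPM in spleen and 5920, 4000, 4580 and 4450 CPM in tumor libraries (1.97, SE 0.40, adjusted p = 0.00188). H2-Eb1 and H2-Aa had values of 2.10 and 1.91 and were likewise not called. Spleen library 1 held the highest value of each and also the highest macrophage marker sum of the spleen libraries, 2640 CPM, and without it Cd74, H2-Aa and H2-Eb1 were called. H2-DMa, which loads peptides, passed (1.94, SE 0.36, adjusted p = 9.8e-04) but kept its call in only 1 of 8 fits that left out 1 library. Of 19 class I genes, 3 rose and 16 did not pass (median 0.52), where 9.16% of all tested genes rose. H2-Q7, a nonclassical class I gene with near-identical copies, stood at 16.7 to 31.3 CPM and 68.8 to 101 CPM (1.87, SE 0.24, adjusted p = 1.0e-04). The peptide-trimming enzyme gene Erap1 rose by 1.42, a call lost without spleen library 4. B2m and H2-K1 were not called (−0.08 and 0.59, adjusted p = 0.730 and 0.0487).

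Of 22 pattern recognition receptors and their partners, 21 were tested, 4 rose and 5 fell (median −0.01). Cd14, the lipopolysaccharide co-receptor, stood at 59.2, 137, 64.6 and 77.4 CPM in spleen and 1150, 800, 1330 and 1150 CPM in tumor libraries (3.72, SE 0.31, adjusted p = 9.4e-06), and Clec4e, the receptor Mincle, rose by 2.28. Nod1, a sensor of bacterial cell walls, fell by 2.55 and Trem3, an activating receptor, by 2.7. Of 24 redox genes, 23 were tested, 4 rose and 3 fell (median −0.53), where 9.16% of all tested genes rose and 12.5% fell. Txnrd1, thioredoxin reductase, stood at 69.4 to 82.9 CPM and 254 to 412 CPM (2.09, SE 0.19, adjusted p = 1.3e-05), while Srxn1 rose by 2.82 and Sod2 by 2.31, Sod2 losing its call without spleen library 4. The NADPH oxidase chain gene Cybb was not called (−0.63, adjusted p = 0.0557).

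Of 26 secreted matrix and angiogenic factors, 20 were tested, 11 rose and 3 fell, the latter being Mmp8, Mmp9 and Mmp25 of neutrophil granules (median 3.10). Mmp13, a collagenase, stood at 2.06, 0.602, 1.39 and 0.321 CPM in spleen and 41.6, 36.3, 43.1 and 50.7 CPM in tumor libraries (5.12, SE 0.37, adjusted p = 4.0e-06). Il6 stood at 0, 0.602, 0 and 0.321 CPM and 79.1, 41.6, 64.6 and 22.6 CPM, a ratio of 300 on few spleen counts (95% counting interval 83.1 to 2480, adjusted p = 1.1e-05). Outside this list but among the 12 largest rises, Il23a, the p19 chain of interleukin-23, held 1 count in the spleen libraries together and 177, 228, 405 and 275 CPM in tumor libraries (adjusted p = 6.5e-07). Both cytokine genes lay above every spleen library in every tumor library.

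Of 25 apoptosis regulators, 22 were tested, 4 rose and 3 fell (median −0.01), where 9.16% of all tested genes rose and 12.5% fell. Bcl2a1b and Bcl2a1d, copies of the survival factor A1 that may share reads, rose by 3.72 and 3.5. Bid, which links death receptors to mitochondria, stood at 57.9, 146, 82.6 and 105 CPM in spleen and 9.24, 17.1, 17.4 and 18.6 CPM in tumor libraries (−2.63, SE 0.32, adjusted p = 7.3e-05). Of 35 cell cycle genes, 18 were tested, 2 rose and 2 fell (median 0.66), near the shares of all tested genes (9.16% and 12.5%). Pcna, the clamp of DNA polymerases, stood at 21.1 to 22.2 CPM and 54.3 to 63.8 CPM (1.42, SE 0.15, adjusted p = 4.3e-05). Hmgb2, a chromatin protein, and Kif23, a kinesin of cell division, fell by 2.07 and 2.11. Mki67, the usual mark of cycling cells, was not called (0.67, adjusted p = 0.300).

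The 12 protein-coding genes with the largest falls at a mean of at least 50 CPM included genes outside the lists. Rfx2, a transcription factor of the RFX family, stood at 51.2, 94.6, 64.2 and 45.3 CPM in spleen and 1.73, 2.13, 4.08 and 3.17 CPM in tumor libraries (−4.43, SE 0.34, adjusted p = 6.2e-06). Slc40a1, the iron exporter ferroportin, stood at 612, 792, 662 and 749 CPM and 34.1, 68.8, 26.4 and 43.5 CPM (−4.03, SE 0.30, adjusted p = 4.7e-06). Bmx, a Tec family kinase of myeloid cells, Scnn1a, a chain of the epithelial sodium channel, and Carns1, carnosine synthase, fell by 4.08, 4.11 and 3.97. Itgb2l, a relative of the beta 2 integrin chain, fell by 3.99, but kept its call in 3 of 8 fits that left out 1 library. The hemoglobin chain gene Hba-a1, which has a near-identical copy, fell by 6.58, and it is a member of the erythroid list, whose sum without it was 48.2 to 109 CPM in spleen and 47.5 to 65.9 CPM in tumor libraries, with overlapping groups. Of 3 erythroid markers tested, 2 fell, Hba-a1 and Hbb-bt, a hemoglobin beta chain gene at 29.9, 33.7, 7.64 and 20.9 CPM in spleen and 0.578, 0, 0 and 0 CPM in tumor libraries (adjusted p = 6.2e-05). Tfrc, the transferrin receptor that other dividing cells also carry, stood at 7.83 to 18.9 CPM in spleen and 29.3 to 46.8 CPM in tumor libraries. Among the largest rises, Dmbt1, an epithelial scavenger receptor, stood at 304, 179, 27.1 and 27.2 CPM in tumor libraries, highest in library 1 as the keratins were, and kept its call in 3 of 8 such fits.

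The same contrast in Ly6C high M-MDSC, the monocytic fraction, was used to ask which differences were particular to PMN-MDSC. Over the 16 untreated MDSC libraries, 1420 of 8278 genes (17.2%) had a larger and 1686 (20.4%) a smaller log2 fold change in PMN-MDSC than in M-MDSC, 37.5% in all (edgeR interaction, adjusted p under 0.05). Larger values made up 45.7% of these calls, but 68.2% (2304 and 1076 genes) with upper-quartile scaling, which moved the median of all tested genes to 0.31. Of the 997 genes lower in tumor PMN-MDSC, 951 were tested for this difference, and 733 had the smaller value in PMN-MDSC, 1 the larger and 217 no call. Of the 730 higher genes, 707 were tested, with 367 larger, 54 smaller and 286 not called. Since the genes were chosen by the PMN-MDSC side of this contrast, these splits are a description. In M-MDSC alone, 527 of 8298 genes (6.35%) were called higher and 187 (2.25%) lower in tumor. Of the genes higher in tumor PMN-MDSC, 671 were tested in M-MDSC and 285 were higher there too. Of the lower genes, 840 were tested, 98 were lower and 10 were higher in M-MDSC.

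The largest positive differences among called genes included those of Igfbp4, Cx3cr1, Gpx3 and F13a1. Igfbp4, a binding protein of insulin-like growth factors, stood at 2.32, 3.01, 4.51 and 1.61 CPM in spleen and 128, 96.6, 79.1 and 90.5 CPM in tumor PMN-MDSC (5.11, SE 0.30), against 0.75 (SE 0.32) in M-MDSC, a difference of 4.35 (SE 0.48, adjusted p = 1.0e-05). Cx3cr1 differed by 4.26 (SE 0.57, adjusted p = 5.4e-05), with a value of −0.70 in M-MDSC. Gpx3, a secreted glutathione peroxidase, differed by 4.16 (SE 0.44) and the clotting factor gene F13a1 by 3.94 (SE 0.68). On the scale of all 34 libraries, Igfbp4 averaged 3.33 CPM in PMN-MDSC from spleen, 20.0 in M-MDSC from spleen and 960 in bulk tumor, and F13a1 averaged 11.9, 459 and 10.5 CPM. The 4 genes averaged 1.57 to 20.5 CPM in spleen PMN-MDSC, and the fraction with the highest mean differed between them, being bulk tumor for Igfbp4, tumor M-MDSC for F13a1 and tumor PMN-MDSC for Cx3cr1. F13a1 lost its call in PMN-MDSC without spleen library 1.

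The largest negative differences were those of Steap4, Ptgs2, Dhrs9, Ifitm1 and Nt5e. Ptgs2 and Nt5e rose in both fractions but less in PMN-MDSC, by 6.22 against 12.09 in M-MDSC for Ptgs2 (difference −5.88, SE 0.61, adjusted p = 6.1e-06) and by 1.56 against 6.94 for Nt5e (−5.37, SE 0.60, adjusted p = 1.1e-05). Spleen M-MDSC held means of 0.360 CPM of Ptgs2 and 0.194 CPM of Nt5e, near the level of no counts, where a fitted fold change depends on the prior count. Ifitm1, an interferon-induced membrane protein, stood at 139, 339, 171 and 270 CPM in spleen and 37.0, 53.9, 58.7 and 65.6 CPM in tumor PMN-MDSC (−2.09) but had a value of 3.27 in M-MDSC. Its call in PMN-MDSC was lost without tumor library 1, 2 or 3. Steap4, a metalloreductase, and Dhrs9, a retinol dehydrogenase, fell by 3.49 and 3.42 in PMN-MDSC and were too low in M-MDSC for a test there, with differences of −7.14 (SE 1.19) and −5.69 (SE 0.95). Steap4 kept its call in PMN-MDSC in 3 of 8 fits that left out 1 library.

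**Figure D3:**
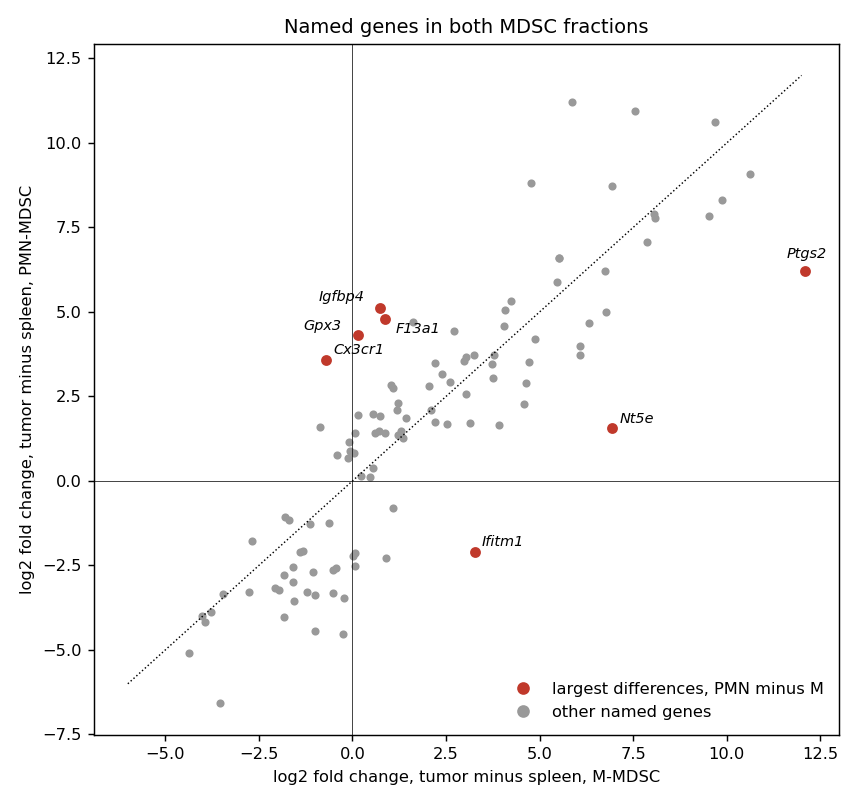
Log2 fold changes (tumor minus spleen) of 110 named genes in untreated M-MDSC (x axis) and PMN-MDSC (y axis), with the line of equal values dotted; red points are the genes with the largest differences between the fractions, of which Steap4 and Dhrs9 could not be drawn. Ptgs2 lies at 12.09 and 6.22, Cx3cr1 at −0.70 and 3.59, and Ifitm1 at 3.27 and −2.09.

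Levels were also set beside the other untreated fractions, on the scale of all 34 libraries. Of the 730 genes higher in tumor PMN-MDSC, 292 had their highest mean there, 219 in bulk tumor, 202 in M-MDSC from tumor and 17 in M-MDSC from spleen. Their mean exceeded that of bulk tumor for 488. Of the 997 lower genes, 958 had their highest mean in spleen PMN-MDSC, and 635 were still above M-MDSC from tumor. The macrophage markers summed to 12300 to 15800 CPM in tumor PMN-MDSC, 8350 to 12700 CPM in M-MDSC from tumor and 882 to 1430 CPM in bulk tumor, with ranges that overlapped between the MDSC fractions. Without Apoe, which averaged 8410 CPM in tumor PMN-MDSC and 3750 CPM in tumor M-MDSC, the sums were 5200 to 6790, 5850 to 6900 and 200 to 342 CPM in the same groups, so M-MDSC were no longer lower. The neutrophil identity genes summed to 2810 to 7750, 518 to 988 and 19.2 to 43.4 CPM in the same groups. In neutrophil identity genes, tumor PMN-MDSC lay between spleen PMN-MDSC (18500 to 40200 CPM) and the other tumor fractions. Spleen M-MDSC, at 1570 to 2980 CPM, reached the lowest tumor PMN-MDSC library. Tertiary granule and mature neutrophil genes summed to 1810 to 4270 CPM in tumor PMN-MDSC and 1440 to 1640 CPM in tumor M-MDSC. Secondary granule genes summed to 3900 to 6390 and 5420 to 8010 CPM there, and the ranges of primary granule genes overlapped. Set against their label, the tumor libraries held more neutrophil identity transcripts than the other tumor fractions, but little Ly6g and high macrophage markers.

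**Figure D4:**
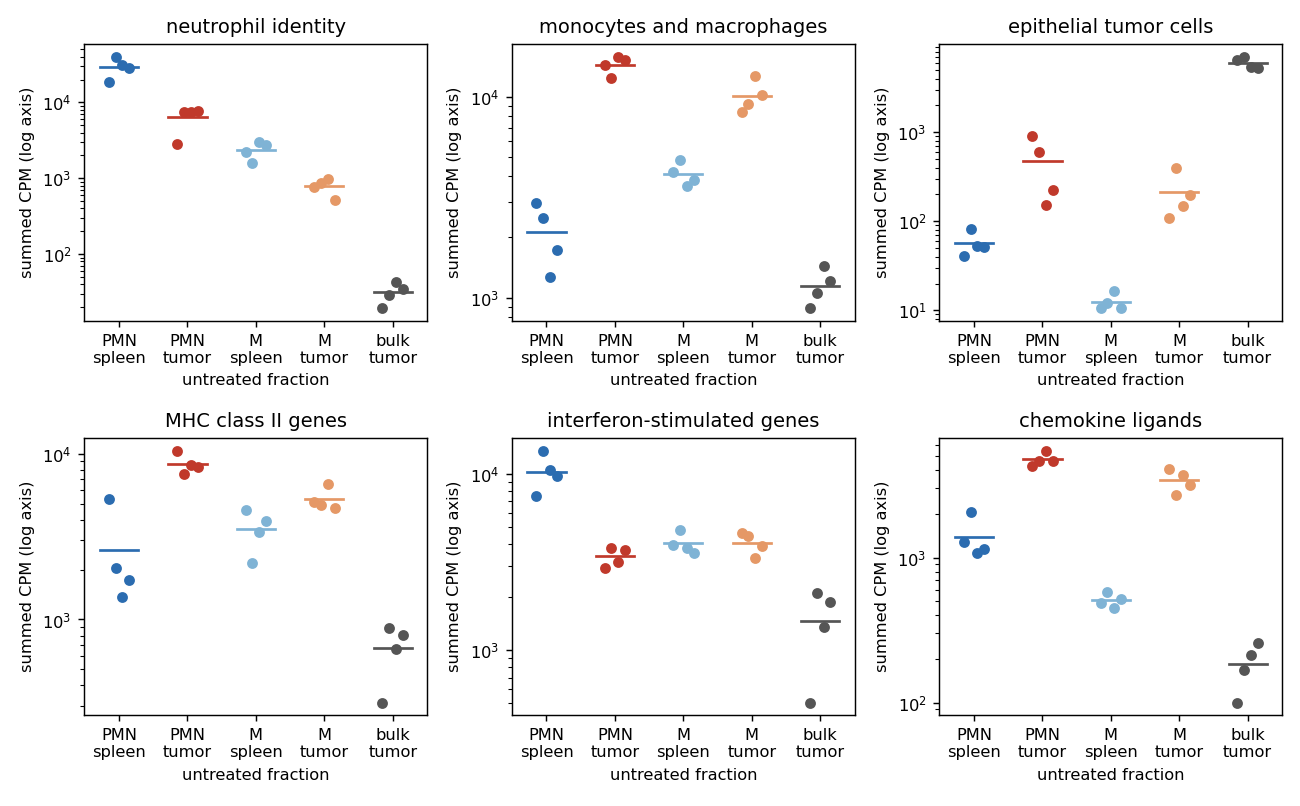
Summed CPM of 6 gene lists (log axis, scaled over 34 libraries) in each library of the 5 untreated fractions on the x axis, with bars at group means. Neutrophil identity genes fall from 18500 to 40200 CPM in spleen PMN-MDSC to 2810 to 7750 CPM in tumor PMN-MDSC and 19.2 to 43.4 CPM in bulk tumor, while macrophage markers stand at 12300 to 15800 CPM in tumor PMN-MDSC and 8350 to 12700 CPM in tumor M-MDSC, an order that rests on Apoe.

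The contrast was read again in PMN-MDSC of mice given complexed poly(I:C), which share no library with the untreated ones. In 4 tumor and 3 spleen libraries, 674 of 8031 genes (8.39%) were called higher and 371 (4.62%) lower. Of the 730 genes higher in untreated mice, 704 could be tested and 698 had the same sign, and 343 were called (47% of the untreated and 50.9% of the treated list). Of the 997 lower genes, 952 were tested and 945 had the same sign, and 316 were called (31.7% and 85.2%). No gene was called in opposite directions. Higher genes made up 64.5% of the treated calls and 74.6% with upper-quartile scaling. The treated counts moved with single libraries, to 40 higher and 10 lower genes without spleen library 2, to 155 and 79 without spleen library 3, to 495 and 232 without spleen library 1, and to 248 to 299 and 46 to 68 without tumor library 1, 2 or 3.

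Single genes followed this split in different ways. Ptgs2 had log2 fold changes of 6.22 in untreated and 8.83 in treated mice (adjusted p = 1.4e-04 in treated), Vegfa 3.99 and 3.72, and Il1a 8.30 and 7.57. Of 46 interferon-stimulated genes tested in treated mice, 2 fell and 1 rose (median −1.44), where 4.62% of all tested genes fell. In untreated mice 18 of 42 fell and 1 rose (median −0.70), where 12.5% of all tested genes fell. Oas3 and Cmpk2 were those that fell in treated mice, at −2.46 and −2.74, while Rtp4 and Ifit1 had values of −1.92 and −2.43 (adjusted p = 0.00168 and 0.00981). Log2 fold changes in treated and untreated mice were 7.37 and 3.05 for Mrc1, 6.90 and 4.43 for Apoe and 4.15 and 1.97 for Cd74, and the 16 macrophage markers had medians of 5.02 and 2.92. On the scale of all 34 libraries, the spleen means in treated and untreated mice were 4.12 and 139 CPM for Mrc1, 87.3 and 436 CPM for Apoe and 77 and 1390 CPM for Cd74. The tumor means were 594 and 1040, 9610 and 8410, and 1240 and 4920 CPM, so that for Mrc1 and Cd74 the larger fold change in treated mice went with lower levels in both compartments. Values near 0 in treated mice were found for Nt5e (0.16 against 1.56), H2-Q7 (−0.12 against 1.87) and Il1rap (−0.51 against −2.28). The difference between untreated and treated mice was not tested for these genes.

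**Figure D5:**
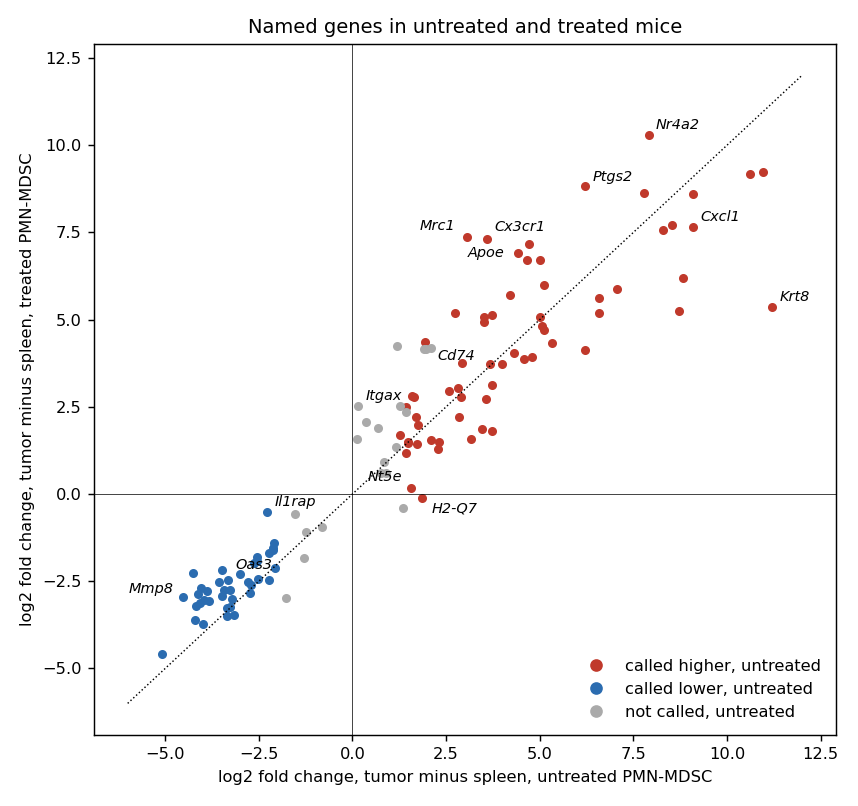
Log2 fold changes (tumor minus spleen) of 121 named genes in untreated (x axis) and treated (y axis) PMN-MDSC, coloured by the call in untreated mice, with the line of equal values dotted. Most points share a sign; Mrc1 lies at 3.05 and 7.37 above the line, and H2-Q7 lies at 1.87 and −0.12.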

How the data were processed

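Sorted cells were sequenced as strand-specific total RNA after PCR without molecular identifiers. The deposited values are raw read counts per gene, made by the authors by aligning to mouse GRCm38 and to ribosomal RNA with ContextMap and BWA and counting with featureCounts by strand (Subread 1.4.6-p3 in the submitters' processing notes). Of 53379 gene identifiers, 53274 matched the annotation used here for symbols, coordinates and lengths. Samples were grouped by their labels. One library of the series with 10 counts was left out, so 34 of 35 were used, and replicate libraries differed beyond sampling noise in all 12 pairs (chi-square over degrees of freedom 6.31 to 32.7).

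Genes that averaged 25 or more counts in the libraries of a comparison were tested with edgeR 4.0.16 (two-sided quasi-likelihood F-test, robust, TMM scaling, R 4.3.3) on the counts as deposited, with Benjamini-Hochberg adjustment over all genes tested. A gene was called at an adjusted p under 0.001 and at least 2-fold, and the difference between PMN-MDSC and M-MDSC at an adjusted p under 0.05. The test was checked on simulated counts. FPKM were computed from the counts and summed exon lengths. For 1 to 3 counts in a group, ratios carry an exact Poisson interval, and intervals cover counting error only.

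The 26 function lists, the 12 marker lists and the members were chosen with earlier results of these data known. Genes were named by rule: the 12 highest and 12 lowest log2 fold changes of called protein-coding genes with separate groups and a mean of at least 50 CPM, the 4 smallest adjusted p-values of each function list, the 3 most abundant genes of each marker list, the sort antigens, Cd274, Krt8 and Krt18, and the 5 highest and 5 lowest differences from M-MDSC. Other genes were chosen after their values were seen, and some genes that the rule names are not reported here. Alternatives were DESeq2 1.42.0, other scalings and filters, a fit over 4 groups, another threshold and leaving out libraries.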

Additional observations from a re-analysis of the deposited data

Results flagged for a closer look

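Single libraries stood apart from the other 3 of their group by Dixon's ratio at the 95% level in 19 of 339 groups of values, and chance alone gives about 1 in 20. Spleen library 1 held the highest MHC class II sum, 4760 CPM, with Cd74 at 2470, H2-Eb1 at 564, H2-Aa at 512 and the endothelial marker Eng at 9.52 CPM. Spleen library 2 held the lowest sum of the sort antigens, 1730 CPM, the highest MHC class I sum, 7830 CPM, and the highest Itgal, 2250 CPM. Spleen library 3 held the highest sum of secondary granule genes, 35200 CPM, and of stem and progenitor markers, 67.3 CPM, with Mmp8 at 1150, Ceacam1 at 394 and Kit at 37.1 CPM. Tumor library 1 held the lowest sum of neutrophil identity genes, 2770 CPM, with Itgam at 267 CPM and Bid at 9.24 CPM. Tumor library 4 held the lowest Il1a, 525 CPM, and the highest Acta2, 25.8 CPM, and Itga2b, 4.07 CPM.

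The difference between tumor and spleen was not the same in PMN-MDSC and M-MDSC by the edgeR interaction. The signed log2 fold change was larger in PMN-MDSC for 1420 and smaller for 1686 genes. A smaller value can be a deeper fall, as for Mmp8 (−4.53 in PMN-MDSC and −0.24 in M-MDSC). The log2 differences were 4.35 for Igfbp4, 4.26 for Cx3cr1, 4.16 for Gpx3 and 3.94 for F13a1, and −7.14 for Steap4, −5.88 for Ptgs2, −5.69 for Dhrs9, −5.37 for Ifitm1 and −5.37 for Nt5e.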

How the results depend on the processing

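No call changed direction under any setting run for the 3 comparisons. In untreated PMN-MDSC (730 higher, 997 lower), genes higher in tumor numbered 1286 with DESeq2, 1825 with no filter on low counts (1769 lower), 1515 at an adjusted p under 0.05 and 1196 in a fit over the 4 untreated MDSC groups. They numbered 1312 without spleen libraries 1 and 2, and 186 (98 lower, 61 named genes called) without tumor libraries 1 and 2, both added after the data were seen. Requiring at least 10 counts in every library left 71 named genes called. With 1 library left out, higher genes ranged from 394 to 1241, lower genes from 531 to 1171, named genes called from 97 to 110 and lists with a median above 0 from 14 to 16. Over these fits, 1002 values of named genes kept their direction and side of the threshold, 81 lost the call and 8 gained it, and RLE scaling changed no call of the 137 named genes tested. Upper-quartile scaling moved the median of all genes to 0.17 (854 higher, 808 lower). Genes with a larger or smaller signed log2 fold change in PMN-MDSC than in M-MDSC numbered 2304 and 1076 with upper-quartile scaling. They numbered 129 and 485 at an adjusted p under 0.001, and with 1 library left out 1078 to 1854 and 1370 to 1862. In treated PMN-MDSC (674 higher, 371 lower), DESeq2 gave 1521 and 1089, no filter 2176 and 1369, at least 10 counts in every library 316 and 238, an adjusted p under 0.05 gave 1967 and 1380, and leaving out 1 library 40 to 662 and 10 to 358. The cause of these changes was not tested. With 1 library left out, Krt8 stood at 3.91 to 7.02% and Krt18 at 4.07 to 7.57% of bulk tumor, and the macrophage marker sum of tumor PMN-MDSC averaged 14000 to 15100 CPM. Without Apoe, a setting added after the data were seen, that sum averaged 6010 CPM. No paired analysis was possible because the sample titles share numbers between fractions but the columns carry other, running numbers, and columns were not tied to titles by their order. At 1648775 to 3769395 counts a library, genes with a mean under 25 counts were not tested.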
